A study of Mus musculus with 28 samples.

Results

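The response of the hippocampus to kainate was measured in mice without a functional fosB gene. It rests on 6 of the 28 arrays of the series, the 3 titled as kainate-treated fosB-null mice (KA) and the 3 titled as saline-treated fosB-null mice. Both groups carry the genotype G/G (fosB-null) on the strain C57BL/6J, are labelled 10 weeks old, and differ in the labels only by KA or saline. The labels call each replicate biological but do not say that each is a separate animal. The dose, the route and the interval from injection to sampling were not stated in the labels. A growth protocol common to all samples speaks of 14 months of age, which goes against the 10 weeks. The labels give all mice as female, but the Y-linked genes Uty, Kdm5d and Eif2s3y stood between 9.55 and 10.42 and Xist between 6.07 and 6.31 in log2 signal on these 6 arrays. Wild-type mice (wt) and fosB d/d mice of the same strain and labelled age, each with 3 saline and 3 KA arrays, served for comparison. For fosB d/d saline, 1 label (the source name) mentions kainate where the title and the treatment say saline. Where replicates are not separate animals, the p-values measure only the spread between these samples.

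FosB is a subunit of AP-1, the dimeric transcription factor made of Fos and Jun family proteins, and it is induced in neurons by activity. Its gene also gives a truncated form, delta-FosB, which accumulates under repeated stimulation; the fosB d/d allele is known to spare the truncated form, and the null allele to remove both. Kainate activates kainate-type glutamate receptors, above all on hippocampal neurons, and provokes seizures, which are followed by waves of early genes, growth factors and neuropeptides in neurons and by reactive change of astrocytes and microglia.

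Values are log2 signals after the 18 young arrays had been brought to 1 distribution, because the deposited arrays differed in level. The deposited medians were 8.11, 8.36 and 8.38 on the 3 saline arrays and 8.10, 8.08 and 8.11 on the 3 KA arrays, so the median gene was shifted by -0.17 before normalization and by -0.01 after it. Arrays of 1 group correlated between 0.984 and 0.995. Saline replicate 1 also differed from the rest of its group in tissue content, as 16 measured choroid plexus markers showed. Their summed signal was 12.73 in saline replicate 1, 14.79 and 14.81 in saline replicates 2 and 3, and 14.91, 14.37 and 14.58 in the KA arrays. Ttr, the carrier of thyroid hormone made by the choroid plexus, was at 11.66 there and between 13.66 and 13.96 on the other 5 arrays. 0 of the 16 were called, beside 0.757 percent of all genes, and their median change was 0.32, or -0.27 without saline replicate 1. Prox1, a transcription factor of dentate granule cells, stood at a mean of 11.33 in saline and 11.07 in KA, and C1ql2, a synaptic organiser of the same cells, at 10.59 and 10.28, against an array median of 8.21.

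**Figure D1:**
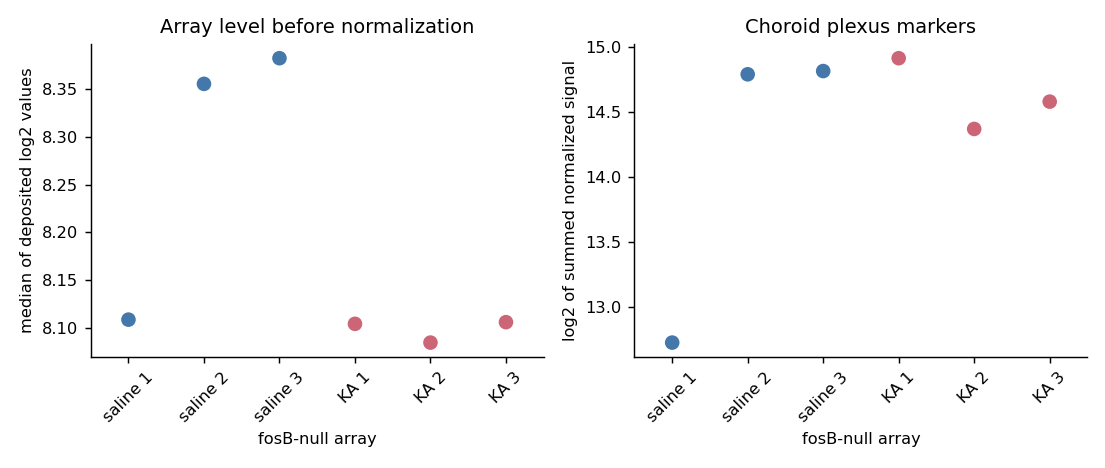
Median of the deposited log2 values (left) and log2 of the summed normalized signal of 16 choroid plexus markers (right) on each fosB-null array, saline in blue and KA in red; the axes do not start at 0. Saline replicates 2 and 3 lie above 8.3 on the left while the other 4 arrays lie near 8.1, and saline replicate 1 lies lowest on the right at 12.73.

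A second property of the arrays bears on every result. Replicate 1 of each young group forms 1 array set, replicates 2 and 3 of wild-type KA and of every saline group form another, and replicates 2 and 3 of fosB-null and fosB d/d KA the last, as an earlier analysis of the array levels had parted them. The labels name no batch. The deposited medians set apart only the second of these sets, at 8.33 to 8.43. They were 8.07 to 8.11 in the first and 8.05 to 8.11 in the last. The split between the first and the last therefore rests on that earlier analysis and was not checked here. Within replicates 2 and 3 the set and the treatment cannot be told apart, so the changes were also computed within the replicate 1 arrays and with the array set as a block. The replicate 1 pair differs in tissue content, so neither is a clean check. Choroid plexus markers had a median change of 2.16 within replicate 1, -0.53 within replicates 2 and 3, and 0.88 with the set block. Meningeal fibroblast markers had 0.73, -0.16 and 0.47. Most changes below are printed without their replicate 1 and set block values. With the set block, 38 of the 45 named genes that were called lost the call.

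KA against saline asked which genes respond to kainate when FosB and delta-FosB are missing. Of 19938 genes, 94 were higher and 57 lower after KA at an adjusted p under 0.05 (limma, moderated test, Benjamini-Hochberg adjustment), that is 0.471 percent and 0.286 percent. The changes ran from 0.32 to 2.97 log2 units among the higher genes and from -0.28 to -1.03 among the lower ones, with 19 genes above 1 and 2 below -1. In all 151 the KA arrays did not overlap the saline arrays. Over all genes, 7.72 percent had all 3 KA arrays above all saline arrays and 9.57 percent had them below.

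The count depends on single arrays and on the array sets. Without KA replicate 2 there were 16 higher and 7 lower genes, without KA replicate 3 25 and 10, without saline replicate 2 35 and 11, and without saline replicate 3 39 and 15. Without KA replicate 1 there were 207 and 183. On the values as deposited 7 were higher and 8 lower. With the replicate number as a block, 231 were higher and 246 lower, and all 151 kept their call. With the array set as a block, 8 were higher and 4 lower and 9 of the 151 kept their call, namely Timp1, Gfap, Serpina3n, Osmr, Slc38a5, Arntl, Echdc2, Rskr and Syna. All 151 had the same sign with that block, but the genes were chosen on the same arrays, so this is no independent evidence. Equal sign within the replicate 1 arrays and within replicates 2 and 3 also held for all 151. The lack of overlap fixes that in advance. The median change of the 94 higher genes was 0.59 between the replicate 1 arrays and 0.73 between replicates 2 and 3, and that of the 57 lower genes was -0.37 and -0.52. The change was larger in replicates 2 and 3 for 124 of the 151 genes.

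**Figure D2:**
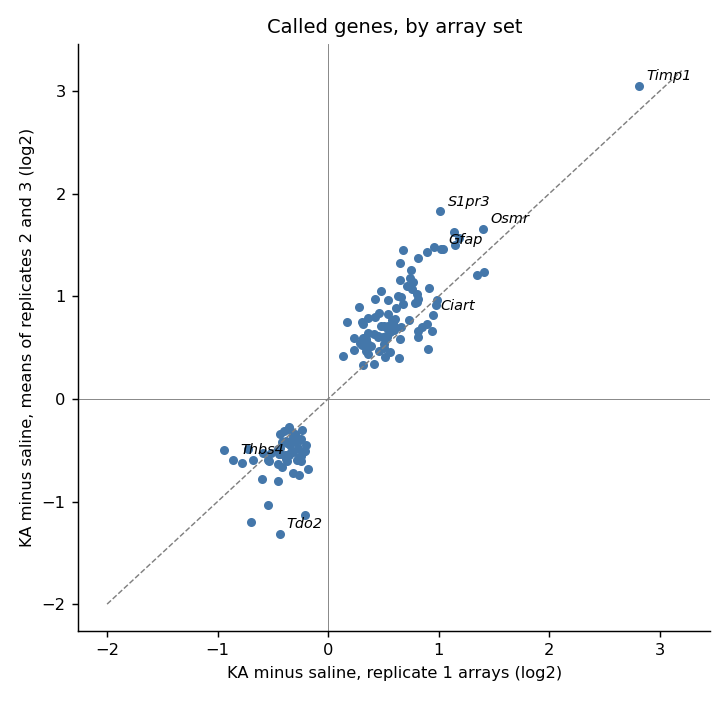
Each point is 1 of the 151 called genes, with its KA minus saline difference between the replicate 1 arrays (x axis, log2) and between the means of replicates 2 and 3 (y axis, log2); the dashed line marks equal differences. All points lie in the 2 quadrants of equal sign, which the lack of overlap in the called genes fixes in advance. Of the points, 124 lie farther from 0 on the y axis than on the x axis.

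Fosb itself, the altered gene, stood at 8.53, 8.45 and 8.53 in saline and at 7.87, 8.48 and 8.41 in KA. KA replicate 1 was the lowest and the groups overlapped, with a difference of -0.25 (standard error, SE, 0.15, adjusted p = 0.541). The labels do not place the probes within the transcript, and the level therefore does not check the genotype. The Fos and Jun family showed no call: 0 of 7 members passed, with a median change of 0.05. With 0.757 percent called over all genes, 0 of 7 does not set the family apart. Fosl1, the Fra-1 subunit of AP-1, was at 7.46, 7.55 and 7.59 in saline and at 7.67, 8.34 and 8.24 in KA (0.55, SE 0.18, adjusted p = 0.215), and Fos at 7.96, 8.24 and 8.13 against 7.94, 8.28 and 8.27.

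Genes of reactive astrocytes made up the largest group. Of 33 measured members of a list of 35, 12 rose and 0 fell, beside 0.471 percent called higher over all genes. The median change of the 33 was 0.50, against -0.01 over all genes, and 31 of the 33 were above 0. The list was drawn up with earlier results of these data known, so its direction is no independent evidence.

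Timp1, an inhibitor of matrix metalloproteinases and a marker of reactive astrocytes, had the largest change. It stood at 7.52, 7.37 and 7.56 in saline and at 10.33, 10.48 and 10.55 in KA. The 2 groups lay far apart, with little spread in either, a difference of 2.97 (SE 0.30, adjusted p = 4.34e-04). The difference was 2.81 between the replicate 1 arrays and 2.82 with the array set as a block (adjusted p = 0.0356).

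Gfap, the intermediate filament of astrocytes, was at 11.27, 11.04 and 11.09 in saline and at 12.29, 12.55 and 12.50 in KA. All KA arrays lay above all saline arrays by at least the spread of either group, and the change was 1.31 (SE 0.13, adjusted p = 4.34e-04). Vim, its partner filament vimentin, was at 11.50, 12.07 and 11.90 against 12.49, 12.97 and 12.92 (0.97, SE 0.19, adjusted p = 0.0255). In both groups the replicate 1 array was the lowest for Vim, and the call was lost with the array set as a block (adjusted p = 0.0787).

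Serpina3n, a secreted serine protease inhibitor of reactive astrocytes, stood at 11.67, 11.79 and 11.64 in saline and at 12.71, 13.26 and 13.09 in KA (1.32, SE 0.15, adjusted p = 0.00124). Osmr, the receptor subunit for oncostatin M, stood at 7.99, 8.77 and 8.45 against 9.39, 10.37 and 10.17 (1.57, SE 0.25, adjusted p = 0.0081). For Osmr the replicate 1 array was the lowest of both groups, which still did not overlap. Stat3, the transcription factor that acts downstream of this receptor family, stood at 10.00, 10.11 and 10.14 against 10.66, 11.17 and 11.06 (0.88, SE 0.15, adjusted p = 0.00999).

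S1pr3, a receptor for sphingosine 1-phosphate, was at 9.49, 9.40 and 9.41 in saline and at 10.51, 11.36 and 11.11 in KA (1.56, SE 0.22, adjusted p = 0.00438). Cd44, the receptor for hyaluronan, was at 7.67, 7.56 and 7.75 against 8.81, 9.27 and 9.28 (1.46, SE 0.23, adjusted p = 0.00649). For both genes KA replicate 1 was the lowest KA array and still lay about 1 unit above the highest saline array. With the array set as a block, S1pr3 changed by 1.05 (adjusted p = 0.0756) and Cd44 by 1.20 (adjusted p = 0.149). The other risen members were Tm4sf1, a tetraspan membrane protein (1.44), Tgm1, a transglutaminase (1.38), Hspb1, the small heat shock protein (1.26), Slc14a1, a urea transporter (1.19), and Aspg, an asparaginase (0.50).

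Several well-known members did not pass. Ptx3, a secreted pentraxin, stood at 6.49, 6.93 and 6.81 in saline and at 7.02, 8.31 and 8.19 in KA (1.10, adjusted p = 0.0683; 0.0297 with the replicate block), with KA replicate 1 close to the saline arrays. Emp1 gave 1.14 (adjusted p = 0.0995; 0.037 with the replicate block) and Lcn2, the lipocalin of reactive astrocytes, 0.40 (adjusted p = 0.597). The count of 12 was 4 with the array set as a block, 5 without KA replicate 2, 6 without KA replicate 3 and 7 without saline replicate 3.

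**Figure D3:**
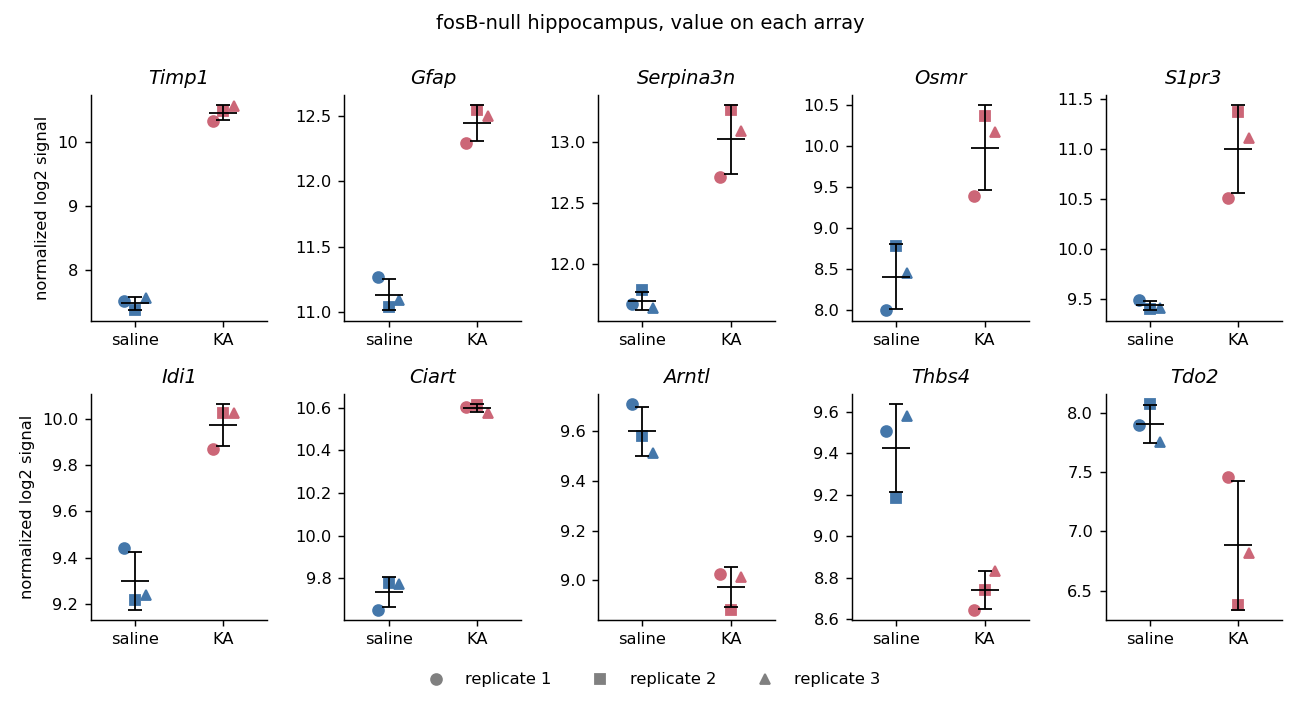
Normalized log2 signal on each fosB-null array for 10 called genes, saline in blue and KA in red, with circles, squares and triangles for replicates 1, 2 and 3 and black bars for the mean and SD of 3 arrays; each panel has its own axis, which does not start at 0. The 2 groups do not overlap in any panel, and Timp1 shows the largest step, from 7.48 to 10.45.

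Astrocyte genes of the resting state behaved otherwise. Of 25 measured members, 0 rose and 1 fell (4 percent, beside 0.757 percent called over all genes), with a median of -0.12. With the replicate block 2 were higher and 3 lower. The one that fell was Mfge8, a secreted bridging protein for the uptake of dying cells, at 11.32, 11.49 and 11.54 in saline and at 10.96, 10.92 and 11.02 in KA (-0.48, SE 0.10, adjusted p = 0.0391). Aqp4, the water channel of astrocyte endfeet, was at 10.75, 11.06 and 10.98 against 11.23, 11.80 and 11.64 (0.63, adjusted p = 0.135; 0.00129 with the replicate block). Gja1, the gap junction protein connexin 43, had -0.35 (adjusted p = 0.166).

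Calls among microglial and inflammatory genes differed by list. Of 22 measured genes of activated microglia, 3 rose and 0 fell, with a median of 0.12. That is 13.6 percent called, beside 0.757 percent over all genes. The 3 were the tetraspanins Cd63 (9.74, 9.84 and 9.77 in saline, 10.71, 10.74 and 10.69 in KA; 0.93, adjusted p = 0.00999) and Cd9 (9.42, 9.31 and 9.40 against 9.92, 10.01 and 9.91; 0.57, adjusted p = 0.00366), and the glycoprotein Gpnmb (8.39, 8.36 and 8.27 against 8.70, 9.10 and 8.99; 0.59, adjusted p = 0.0333). Cd63 and Cd9 had almost no spread within either group, and neither gene belongs to microglia alone. The count of 3 was 0 with the array set as a block and on deposited values. It was 1 with the 6 compared arrays only, without KA replicate 2 or without KA replicate 3, and 4 with the replicate block. With the array set as a block the adjusted p was 0.211 for Cd63, 0.0641 for Cd9 and 0.5 for Gpnmb (limma). Among 24 genes of microglial identity 1 fell (4.17 percent called), and with the replicate block 3 were higher and 1 lower. P2ry12, the purinergic receptor of resting microglia, was at 9.20, 9.11 and 9.16 in saline and at 8.88, 8.40 and 8.43 in KA (-0.59, SE 0.11, adjusted p = 0.0216). Its KA replicate 1 lay between the other KA arrays and the saline arrays, and the call was lost with the array set as a block (-0.37, adjusted p = 0.101).

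0 of 26 cytokines and chemokines were called, with a median of 0.13, and 0 of 23 interferon response genes, with a median of 0.18. With 0.757 percent called over all genes, a count of 0 does not set lists of this size apart. The nearest were Il33, an alarmin (0.80, adjusted p = 0.0933), Ccl12, a monocyte chemokine (0.93, adjusted p = 0.145), Ifitm3, an antiviral membrane protein (0.67, adjusted p = 0.0752), and Ifit3 (1.03, adjusted p = 0.114). Ifit3 stood at 8.28, 8.32 and 8.20 in saline and at 8.91, 9.54 and 9.44 in KA, so its groups did not overlap either. Among 16 complement and antigen presentation genes 1 rose (6.25 percent): C4b, complement component 4, at 9.20, 9.34 and 9.49 against 9.99, 10.41 and 10.29 (0.89, SE 0.15, adjusted p = 0.00903). C4b is read by probes that may also read its close copy C4a. Defining genes of blood cells gave no call either: 0 of 17 genes of T cells, neutrophils and monocytes were called, with a median of -0.0035.

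Of 20 measured cholesterol synthesis genes, from a list of 24, 4 rose and 0 fell, beside 0.471 percent called higher over all genes. Of the 20, 19 were above 0, and the median was 0.37. Idi1, the isopentenyl diphosphate isomerase, was at 9.44, 9.22 and 9.24 in saline and at 9.87, 10.02 and 10.02 in KA (0.67, SE 0.10, adjusted p = 0.00438). Sqle, squalene epoxidase, was at 10.03, 9.61 and 9.68 against 10.57, 10.35 and 10.36 (0.65, SE 0.14, adjusted p = 0.0391). In Sqle the replicate 1 array was the highest of both groups. Lss, lanosterol synthase, changed by 0.45 (adjusted p = 0.0166) and Msmo1, a sterol methyl oxidase, by 0.49 (adjusted p = 0.0467). The regulator Srebf2 (0.21, adjusted p = 0.429) and its partner Insig1 (0.41, adjusted p = 0.145) were not called. With the replicate block 9 members were called. With the array set as a block, on deposited values and with the 6 compared arrays only, 0 were called. The median with the set block was 0.37. The count was 1 without saline replicate 2, saline replicate 3, KA replicate 2 or KA replicate 3 in turn, and 2 without KA replicate 1.

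Clock genes gave 1 rise and 1 fall among 20 measured members (10 percent, beside 0.757 percent called over all genes), with a median of 0.02. Arntl, which encodes BMAL1, the activator of the circadian clock, was at 9.71, 9.58 and 9.51 in saline and at 9.02, 8.88 and 9.01 in KA (-0.63, SE 0.13, adjusted p = 0.032). Ciart, a circadian repressor, was at 9.65, 9.78 and 9.77 against 10.60, 10.61 and 10.58 (0.86, SE 0.17, adjusted p = 0.0266). Both groups were tight in both genes. Dbp, a clock output factor, was at 10.21, 10.25 and 10.29 against 10.73, 10.86 and 10.89 (0.58, SE 0.16, adjusted p = 0.141), and Nr1d2 had a difference of 0.31 (adjusted p = 0.177; 0.044 with the replicate block). The labels give no hour of sampling, and its part in these changes was not tested. Without any 1 of saline replicates 1, 2 and 3 and KA replicates 2 and 3, neither Arntl nor Ciart was called. With the replicate block 4 members were higher and 1 lower, and with the array set as a block 0 and 1.

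Matrix genes split. Of 31 measured members, Timp1, Cd44 and Adamts1 rose and Timp4, Hapln1 and Thbs4 fell, with a median of 0.02. That is 19.4 percent called, beside 0.757 percent over all genes. Adamts1, a protease of aggrecan and versican, was at 9.06, 8.61 and 8.61 in saline and at 9.71, 9.99 and 9.89 in KA (1.10, SE 0.17, adjusted p = 0.00687). Its change was 0.65 within the replicate 1 arrays and 0.73 with the array set as a block (adjusted p = 0.24). Timp4, a metalloproteinase inhibitor like Timp1, moved the other way, from 10.78, 10.78 and 10.76 to 10.45, 10.17 and 10.32 (-0.46, SE 0.09, adjusted p = 0.017). Hapln1, the link protein of perineuronal nets, was at 9.25, 9.68 and 9.50 against 8.99, 8.87 and 8.83 (-0.58, SE 0.12, adjusted p = 0.0391), and its change was -0.26 within the replicate 1 arrays and -0.26 with the array set as a block (adjusted p = 0.313). Without KA replicate 2 the list had 1 higher and 0 lower members, and without saline replicate 3 it had 3 and 0.

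Activity genes of neurons were not called. Among 32 immediate early genes 0 passed, with a median of -0.05, and among 30 late activity genes 0 passed, with a median of 0.01. Over all genes 0.757 percent were called, so a count of 0 does not set lists of this size apart. With the replicate block 2 immediate early genes were higher and 2 lower, and 1 late activity gene was called in each direction. Bdnf, the neurotrophin induced by seizures, was at 8.60, 8.51 and 8.44 in saline and at 8.69, 8.73 and 8.51 in KA (0.13, adjusted p = 0.495). Nptx2, a secreted pentraxin that clusters AMPA receptors, was at 9.94, 9.98 and 9.98 against 9.79, 10.12 and 9.94 (-0.02, adjusted p = 0.968). Tac1, the substance P precursor, came nearest, at 8.92, 8.64 and 8.60 against 9.60, 9.21 and 9.33 (0.66, adjusted p = 0.0799; 0.00776 with the replicate block). Trh, the thyrotropin-releasing hormone precursor, was at 7.53, 7.59 and 7.33 against 8.06, 7.90 and 8.49 (0.67, adjusted p = 0.531). 0 of 27 neuropeptide precursors were called, again near the share over all genes, and 1 with the replicate block.

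Of 22 dentate granule cell markers 1 fell (4.55 percent, beside 0.757 percent called over all genes), with a median of -0.18. Tdo2, a tryptophan-degrading enzyme found in granule cells, was at 7.89, 8.07 and 7.75 in saline and at 7.45, 6.38 and 6.82 in KA (-1.02, SE 0.20, adjusted p = 0.0214). KA replicate 1 lay nearer the saline arrays than the other KA arrays did, and the change was -0.44 within the replicate 1 arrays. Prox1 had -0.25 (adjusted p = 0.0995; 0.0377 with the replicate block), and with that block 4 of the 22 were lower. In whole tissue, fewer cells of a type and less RNA per cell cannot be told apart. 0 of 10 CA1 markers, 0 of 17 CA2 and CA3 markers and 0 of 22 interneuron markers were called, which is near the share over all genes. Of 19 myelin genes 1 fell (5.26 percent), Mobp, a myelin protein of oligodendrocytes (-0.40, adjusted p = 0.0451), with a median of -0.14.

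**Figure D4:**
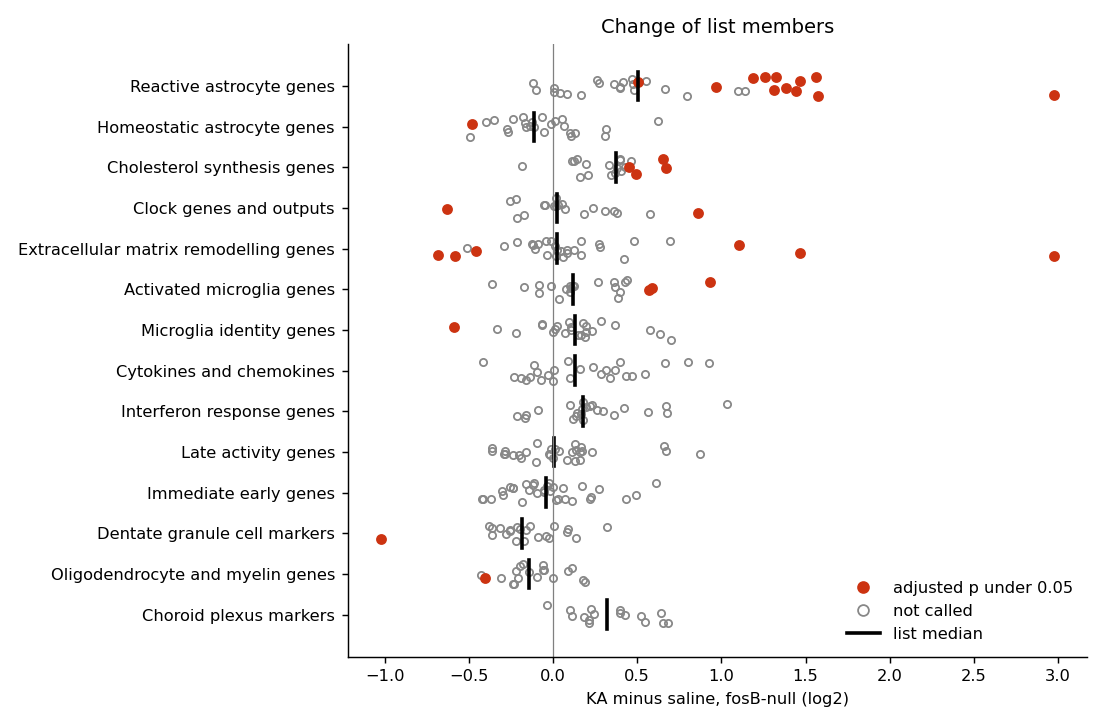
KA minus saline change (log2) of every measured member of 14 gene lists in fosB-null hippocampus, filled red where the adjusted p was under 0.05 and open otherwise, with a black bar at the list's median. Reactive astrocyte genes have 12 filled points and the highest median, 0.50, followed by the cholesterol genes at 0.37. The immediate early and late activity genes have none filled, beside 0.757 percent called over all genes.

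Among the other genes of largest rise were S100a10, a calcium-binding partner of annexin A2, at 10.37, 9.66 and 9.82 in saline and 11.34, 11.17 and 11.28 in KA (1.31, SE 0.24, adjusted p = 0.0166), and Hspb6, a small heat shock protein (8.95, 9.54 and 9.67 against 10.36, 10.92 and 10.77; 1.30, SE 0.23, adjusted p = 0.0112). Saline replicate 1 was the highest saline array for S100a10 and the lowest for Hspb6. Gldn, the gliomedin of nodes of Ranvier, was at 7.50, 7.70 and 7.83 against 8.39, 9.26 and 9.14 (1.25, SE 0.20, adjusted p = 0.00889). Further called higher genes, chosen after their values were seen, were Anxa2, annexin A2 (0.97), S100a6 (0.73), S100a11 (0.71) and Lgals1, galectin 1 (0.92).

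The largest falls were in Fam163a, a membrane protein of uncertain role, at 9.87, 10.03 and 9.98 in saline and 9.18, 8.70 and 8.92 in KA (-1.03, SE 0.16, adjusted p = 0.00643), and Tdo2. Rasd2, a small GTPase abundant in striatum (Rhes), was at 10.19, 10.42 and 10.30 against 9.64, 9.31 and 9.33 (-0.87, SE 0.13, adjusted p = 0.00643). In both genes KA replicate 1 was the highest KA array, and the groups did not overlap. Rasd2 was the 1 of 13 striatal markers that was called (7.69 percent, beside 0.757 percent over all genes). Stc1, the hormone stanniocalcin 1 (-0.68), Hyal6, a hyaluronidase family member (-0.82, or -0.21 within the replicate 1 arrays and -0.45 with the array set as a block, adjusted p = 0.431), Rskr, a kinase (-0.72), Syna, an envelope-derived fusion protein (-0.67), Plk5, a polo-like kinase (-0.65), and Mdga1, an adhesion protein of synapses (-0.59), completed the largest falls with Thbs4, Arntl and P2ry12. Among 22 heat shock and oxidative stress genes, Hspb1 and Hmox1, heme oxygenase 1 (0.59, adjusted p = 0.0288), rose and 0 fell (9.09 percent). Single calls came in Bub1, a mitotic checkpoint kinase (0.58), among 22 cell cycle genes, and in Shox2, a homeobox gene (-0.36), among 13 thalamic markers.

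Because AP-1 is the factor that the null allele depletes of 1 subunit, promoter windows of the called genes were searched for its motif TGAGTCA, which reads TGACTCA on the other strand. RefSeq windows of GRCm38.p6, 300 bases with the last 50 from the start site on, were matched for 15563 of the 19938 genes. The motif was in 11 of 77 called higher genes with a window (14.3 percent), in 1 of 43 called lower genes (2.33 percent) and in 5.39 percent of all matched genes. The 11 were Gldn, Tspan4, Anxa2, Clic1, Gfpt2, S100a11, Ucma, Prss23, Gpnmb, Ampd3 and Msmo1, and the lower one was Prom1. Timp1, Gfap, Serpina3n and Osmr were not among them. A match is a description of letters and does not show binding. The windows of 3 matched genes and of the 2 most firmly called genes are printed here, from 250 bases before the start to 10 after it, with every searched motif in capitals: AP-1 TGAGTCA, the cyclic AMP motif TGACG, the E-box CACGTG, the STAT motif TTCNNNGAA, the interferon element GAAANNGAA, the heat shock element GAANNTTC and the sterol element TCACNCCAC, each on either strand.
Gldn, chr9:54286236-54286495, plus strand: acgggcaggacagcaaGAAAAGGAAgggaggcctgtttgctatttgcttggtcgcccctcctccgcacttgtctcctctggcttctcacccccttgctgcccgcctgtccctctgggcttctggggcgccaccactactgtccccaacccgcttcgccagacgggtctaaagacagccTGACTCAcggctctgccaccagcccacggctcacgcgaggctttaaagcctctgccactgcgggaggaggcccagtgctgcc
Anxa2, chr9:69453433-69453692, plus strand: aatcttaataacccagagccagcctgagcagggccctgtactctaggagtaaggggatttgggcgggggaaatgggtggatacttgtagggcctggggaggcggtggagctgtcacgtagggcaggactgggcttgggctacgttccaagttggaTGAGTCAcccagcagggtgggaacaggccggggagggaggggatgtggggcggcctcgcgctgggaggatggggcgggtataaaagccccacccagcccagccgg
S100a11, chr3:93520246-93520505, plus strand: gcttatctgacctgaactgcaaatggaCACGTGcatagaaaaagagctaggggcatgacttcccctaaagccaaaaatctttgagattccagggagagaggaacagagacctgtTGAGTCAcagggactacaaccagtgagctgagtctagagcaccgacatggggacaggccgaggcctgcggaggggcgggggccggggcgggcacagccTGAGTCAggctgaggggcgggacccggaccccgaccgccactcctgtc
Timp1, chrX:20869916-20870175, plus strand: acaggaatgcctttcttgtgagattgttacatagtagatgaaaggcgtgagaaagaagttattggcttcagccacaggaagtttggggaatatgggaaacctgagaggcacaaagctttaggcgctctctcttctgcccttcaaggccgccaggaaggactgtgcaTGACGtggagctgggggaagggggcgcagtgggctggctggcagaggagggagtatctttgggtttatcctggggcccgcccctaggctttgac
Gfap, chr11:102897191-102897450, minus strand: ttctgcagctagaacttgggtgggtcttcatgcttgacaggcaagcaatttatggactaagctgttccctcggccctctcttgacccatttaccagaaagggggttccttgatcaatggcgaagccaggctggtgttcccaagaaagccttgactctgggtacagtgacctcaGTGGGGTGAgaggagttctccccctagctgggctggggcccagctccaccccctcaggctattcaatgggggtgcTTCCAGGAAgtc

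In Gldn the AP-1 letters begin at position -72 and in Anxa2 at -95, counted from the start site, while S100a11 holds them at both -136 and -38. Timp1 holds only a cyclic AMP motif, at -84. Gfap holds the STAT letters across its start, from -2 to 7, and a sterol element match at -77. STAT letters were in 10 of the 77 called higher genes and in 1 of the 43 called lower genes. They were in 9.01 percent of all and in 22.2 percent of the reactive astrocyte genes with a window. Interferon element letters were in 10 of the 77 as well, and in 11.6 percent of the called lower genes. They were in 9.2 percent of all and in 25.9 percent of the reactive astrocyte genes. Heat shock elements were in 9.09 percent of the called higher genes, 4.65 percent of the called lower genes and 7.95 percent of all. E-box letters were in 16.9 percent of the called higher genes, 11.6 percent of the called lower genes and 9.52 percent of all, and cyclic AMP motifs in 20.8, 23.3 and 28.0 percent. The sterol element was in 6.49 percent of the called higher genes, in 4.65 percent of the called lower genes, in 6.25 percent of the cholesterol synthesis genes (1 of 16) and in 1.39 percent of all.

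Ciart and Hspb1 are shown for the motifs of their known regulators, the clock and the heat shock factor.
Ciart, chr3:95882219-95882478, minus strand: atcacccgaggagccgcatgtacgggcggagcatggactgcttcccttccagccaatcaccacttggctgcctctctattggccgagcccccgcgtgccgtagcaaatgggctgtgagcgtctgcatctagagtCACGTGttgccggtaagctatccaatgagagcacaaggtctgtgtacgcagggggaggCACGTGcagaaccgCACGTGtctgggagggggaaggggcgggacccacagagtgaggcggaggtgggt
Hspb1, chr5:135887669-135887928, plus strand: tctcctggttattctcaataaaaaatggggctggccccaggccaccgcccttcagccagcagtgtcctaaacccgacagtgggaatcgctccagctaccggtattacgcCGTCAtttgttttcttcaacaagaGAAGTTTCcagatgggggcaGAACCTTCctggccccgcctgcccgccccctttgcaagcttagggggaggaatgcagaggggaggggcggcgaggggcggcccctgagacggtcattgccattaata
Ciart holds 3 E-boxes, beginning at -116, -58 and -44. Hspb1 holds 2 heat shock elements, beginning at -117 and -97, and a cyclic AMP motif at -141. E-boxes were in 29.4 percent of the clock genes with a window and heat shock elements in 31.2 percent of the heat shock and oxidative stress genes, against 7.95 percent of all for the latter. Hspb1 itself stood at 8.75, 9.86 and 9.43 in saline and at 10.10, 10.99 and 10.72 in KA (1.26, SE 0.27, adjusted p = 0.0391), with the replicate 1 array lowest in each group.

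Set beside wild-type mice, the same genes mostly moved the same way and the higher ones mostly farther in wild type. Wild type had 692 genes called higher (3.47 percent) and 681 called lower (3.42 percent) from other arrays of the same fit. Of the 94 genes that rose in fosB-null mice, 74 also rose in wild type, 78.7 percent of the 94 and 10.7 percent of the 692. Of the 57 that fell, 36 fell in wild type, 63.2 percent of the 57 and 5.29 percent of the 681, and 2 rose there. The median change of the 94 was 0.69 in fosB-null and 1.00 in wild type, and 66 of them had the larger value in wild type. For the 57 it was -0.48 and -0.37. Since the genes were chosen on the fosB-null arrays, these values are a description. In wild type, replicates 2 and 3 of saline and of KA lie in the same array set. In fosB-null mice, replicates 2 and 3 of KA lie in another set than those of saline. Differences between the responses therefore move with the set as well.

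**Figure D5:**
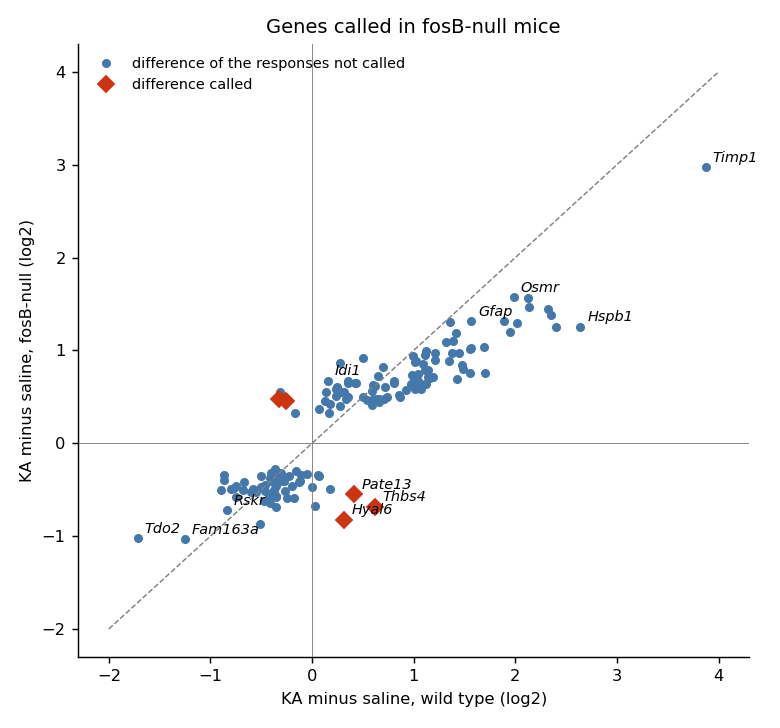
KA minus saline change (log2) of the 151 called genes in wild type (x axis) and in fosB-null mice (y axis), with equal change on the dashed line and red diamonds for the 5 genes whose difference between the responses was itself called. Timp1, Hspb1 and Gfap lie below the line at the upper right, and Thbs4, Pate13 and Hyal6 lie in the quadrant of opposite sign.

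Some of the lists are set side by side here. Called differences also lay in other lists, which share members. Matrix genes had 2 more negative in fosB-null, and immediate early genes, neuropeptide precursors and growth factor genes 1 each. Homeostatic astrocyte genes and endothelial genes had 1 each more positive. Over all genes 0.0953 percent were called more negative and 0.0652 percent more positive. Of the 25 homeostatic astrocyte genes, 12 were called lower and 2 higher in wild type. Reactive astrocyte genes had 22 of 33 called higher in wild type, with a median of 1.02. The difference between the responses was called for 0 of the 33 (median difference -0.36, against -0.01 over all genes). This depends on the fit: for Hspb1 the difference was -1.38 (limma, adjusted p = 0.135). It was called with the replicate block (adjusted p = 0.041) and with the array set as a block (adjusted p = 0.044). Late activity genes had 12 of 30 called higher in wild type, with a median of 0.30, and the difference was called, more negative in fosB-null, for 2: Nptx2 and Acan, the perineuronal net proteoglycan aggrecan. Cytokines and chemokines had 10 of 26 called higher in wild type and interferon genes 9 of 23, with 0 called differences in either list. Cholesterol genes had 1 of 20 called higher in wild type, with a median of 0.11, and 0 called differences. Clock genes had 1 of 20 called higher and 3 lower in wild type, with a median of -0.13, and 0 called differences. Ciart changed by 0.27 in wild type (adjusted p = 0.42), from a saline mean of 10.39, against 9.73 in fosB-null saline. Its difference between the responses was 0.59 and was not called (adjusted p = 0.294). Timp1 changed by 3.87 in wild type, Gfap by 1.56 and Serpina3n by 1.89, and the difference between the genotypes was called for none of these 3. It was -0.90 for Timp1 (SE 0.42, adjusted p = 0.363), -0.25 for Gfap (SE 0.19, adjusted p = 0.612) and -0.57 for Serpina3n (SE 0.22, adjusted p = 0.26).

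The difference of the responses was called for 32 genes, 13 more positive in fosB-null (0.0652 percent of 19938) and 19 more negative (0.0953 percent). With the replicate block 386 genes were called, with the array set as a block 219, of which 27 of the 32, and on deposited values 8. Leaving out any 1 of the 12 arrays moved the count by more than 1.5 times, to between 6 and 151, except wild-type saline replicate 1. That array carried Xist at 9.63 together with Y-linked genes, against 5.97 to 7.45 on the other 17 young arrays, and without it 35 genes were called, 21 of the 32 among them. All 10 named here stayed called without it.

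Nptx2 showed the clearest difference. In wild type it stood at 9.93, 9.73 and 9.74 in saline and at a mean of 11.11 in KA, with 11.16 on the highest array, a rise of 1.30, while the 6 fosB-null arrays lay between 9.79 and 10.12. The difference was -1.32 (SE 0.13, adjusted p = 5.91e-04). Gal, the precursor of the neuropeptide galanin, stood in fosB-null mice at 7.41, 7.23 and 7.21 in saline and at 7.54, 7.52 and 7.42 in KA. In wild type it went from 7.33, 6.97 and 6.62 to 9.09, 8.68 and 8.59, so the difference was -1.60 (SE 0.21, adjusted p = 0.00456). Egln3, a prolyl hydroxylase of the oxygen response, was between 8.43 and 8.66 on the fosB-null arrays and rose from 8.59, 8.74 and 8.51 to 9.54, 9.57 and 9.58 in wild type (difference -0.98, SE 0.13, adjusted p = 0.00456).

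Thbs4, the matrix glycoprotein thrombospondin 4, was called in both genotypes with opposite sign. It stood at 9.51, 9.18 and 9.58 in fosB-null saline and at 8.65, 8.74 and 8.83 in fosB-null KA (-0.68, SE 0.12, adjusted p = 0.0119). In wild type it went from 9.41, 9.06 and 9.36 to 9.95, 9.74 and 10.00 (0.62, adjusted p = 0.00468). The difference was -1.30 (SE 0.17, adjusted p = 0.00456). The fosB d/d arrays fell as well, from 9.76, 9.63 and 9.53 to 8.63, 8.82 and 8.54 (-0.98, adjusted p = 0.0033).

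Asrgl1, an asparaginase-like enzyme, was called for a more positive response in fosB-null. It stood at 10.45, 10.24 and 10.28 in saline and at 10.25, 10.09 and 10.15 in KA, where wild type went from 10.61, 10.52 and 10.53 to 9.81, 9.78 and 9.77 (difference 0.60, SE 0.10, adjusted p = 0.0231). Itga11, an integrin subunit for collagen, went from 8.10, 8.35 and 8.34 to 7.95, 7.93 and 7.94 and in wild type from 7.92, 8.02 and 7.90 to 8.24, 8.40 and 8.33 (difference -0.70, SE 0.11, adjusted p = 0.0215). The 10 genes named for this difference are those of smallest p once predicted loci, small RNAs and receptors of smell and the vomeronasal organ are left out, and Vmn1r180, Vmn1r212 and Olfr1509 ranked among them before that. The remaining 4 of the 10, Pate13, Cpxcr1, Orm3 and Bcl2a1c, lay between 3.74 and 6.45 on the wild-type and fosB-null arrays, well below the array median of 8.21, with differences from -0.96 to -1.12.

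Against fosB d/d mice, which are known to keep delta-FosB, the difference of the responses was called for 0 genes by limma, with 542 at an unadjusted p under 0.05 and a smallest adjusted p of 0.513. This does not show that the responses are alike. The fosB d/d response itself had 47 genes called higher (0.236 percent) and 43 called lower (0.216 percent), and its KA replicates 2 and 3 share the array set of the fosB-null ones. Of the 94 genes that rose in fosB-null mice 26 rose there, 27.7 percent of the 94 and 55.3 percent of the 47, and of the 57 that fell 12 fell there, 21.1 percent and 27.9 percent. In sign, 93 of the 94 and 57 of the 57 had the same direction in fosB d/d. Saline and KA arrays fall in the same array sets in both genotypes, so equal sign moves with the set as well. The part of the set in it was not tested. Timp1 changed by 2.06 in fosB d/d mice and Gfap by 1.27. Reactive astrocyte genes had 7 of 33 called higher there (median 0.39), cholesterol genes 3 of 20 (median 0.36), and Ciart changed by 0.97 (adjusted p = 0.0264).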

How the data were processed

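Hippocampal RNA, 100 ng per array, was labelled and hybridised to Affymetrix mouse gene arrays, per the series' design text. The deposited values are log2 signals for 35557 probe sets, made by the authors with Affymetrix Expression Console, per the submitters' processing notes. The version, the normalization and the array annotation build were not given in the sources used here. All 28 columns were mapped by title, with 0 other columns, and no raw intensities were analysed here. Of the probe sets, 21789 carry 1 symbol, 1621 several and 12147 none, and the brightest probe set stood for each of 19938 genes. The 18 young arrays were quantile-normalized and fitted with limma 3.58.1 under R 4.3.3 (6 group means, empirical Bayes, Benjamini-Hochberg adjustment over all genes, called at 0.05). The number of arrays limits the precision. The procedure was tested on simulated data with independent noise on each array. Those data held no array sets and no replicate structure, so the test does not bear on either.

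Members and gene lists were chosen with earlier results of these data known. The text names Fosb, the 12 largest called changes per direction without predicted loci, small RNAs, receptors of smell and the vomeronasal organ and immune receptor segments, called list members, up to 4 list members of smallest p, other list members with their values, and, with the same exclusions, up to 10 genes of smallest p per difference of responses. The promoter genes and Stat3, Slc38a5 and Echdc2 were named after their values were seen. Both groups use replicate numbers 1 to 3, and the labels do not explain them. Arrays of equal number deviated together from their group means (correlations 0.38, 0.23 and 0.25). Saline 2 with KA 3 and saline 3 with KA 2 gave 0.25 and 0.20, as high as equal numbers, so only replicate 1 stands apart (-0.27 to -0.31 with unequal numbers). Since every equal-number correlation was over 0.1 the numbers were used as a block, without showing that 2 and 3 are matched. For KA against saline, blocked values are given where they change a call. For the differences of responses they are given as counts and for Hspb1. Alternatives were other normalizations, blocks for replicate and array set, filters, probe set rules, moderation, array weights and leaving out each array.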

Additional observations from a re-analysis of the deposited data

Results flagged for a closer look

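The KA response of fosB-null mice differed from that of wild type by an interaction contrast in 10 genes named by the rule, given here as fosB-null minus wild type in log2 units. The difference was -1.32 for Nptx2, -0.98 for Egln3, -1.60 for Gal and -1.30 for Thbs4. It was -0.96 for Pate13, -0.99 for Cpxcr1, -0.70 for Itga11, -1.12 for Orm3 and -0.98 for Bcl2a1c, and 0.60 for Asrgl1. Nptx2, Gal and Thbs4 kept the call under all alternatives that were run for them (highest adjusted p 0.0042, 0.0245 and 0.0245, limma). Egln3 and Pate13 lost it under 1 alternative each, Itga11 under 8, and Asrgl1, Bcl2a1c, Cpxcr1 and Orm3 under 9 each. fosB-null KA replicates 2 and 3 lie in another array set than wild-type KA replicates 2 and 3, and the part of the set in these differences was not tested beyond the block on the set.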

How the results depend on the processing

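Of 45 called named genes, Timp1, Gfap and Serpina3n alone kept the call under all 17 alternatives (highest adjusted p 0.0356, 0.0282 and 0.0384, limma), and 0 reversed. Against 94 higher and 57 lower genes there were 7 and 8 on deposited values, 15 and 0 with the 6 compared arrays only, 8 and 4 with the array set as a block, 56 and 27 with it as a random block, and 2233 and 2980 with array weights. Median centring gave 25 lower genes. Leaving out 1 array gave 16 to 207 higher and 7 to 183 lower genes, and 35 of the 45 lost the call without KA replicate 2. With the replicate block, for which the pairing check sets apart only replicate 1, 231 were higher and 246 lower, and 0 of the 45 named genes lost the call. For the difference from wild type, 32 genes became 8 on deposited values, 386 with the replicate block, 219 with the set block, 172 with the random set block, 17 without the dimmest 30 percent, 17 with trended robust moderation, 3554 with array weights, and 6 to 151 without 1 array. The difference from fosB d/d went from 0 to 255 genes with array weights and stayed at 0 under the other alternatives run. The causes were not tested. With 3 arrays per group, small changes and genes near the array floor are resolved poorly, and no raw signal over background was analysed here.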
